A study of Homo sapiens with 3 samples.

Results

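MYC encodes a basic helix-loop-helix leucine zipper transcription factor that drives ribosome production, metabolism and entry into the cell cycle. In epithelial cells, repression of MYC is a known part of the growth arrest that TGFβ brings about. SMAD3 and SMAD4 act there with an E2F repressor at an element close to the MYC start, and the fall of MYC frees cyclin-dependent kinase inhibitor genes such as CDKN2B and CDKN1A for activation. MYC also lies in a gene desert, a long stretch poor in protein-coding genes, which is known for enhancers that contact the MYC promoter over long distances in a manner that depends on the tissue. SMAD2/3 binding in the gene desert around MYC is described here from the lists of peaks at both times of TGFβ treatment.

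All peaks overlapping chromosome 8 from 128000000 to 129300000 (hg19), a window of 1.3 Mb, were taken. MYC lies in it at 128748315 to 128753680 on the plus strand, so that the window reaches 748.3 kb before the MYC start and 551.7 kb after it. The window held 13 of the 5486 peaks of both lists, 7 of 2206 at 1.5 h and 6 of 3280 at 16 h. Each peak carries the authors' MACS score, whose definition is not given in the sources used here. Scores were used to rank peaks within a list, and a high or low score below is a place in that order, not a measure of binding strength. The window was chosen by its position around MYC and with the score of its highest 1.5 h peak already known, so all values below are descriptions without a test.

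The cells were MCF10A MII, a human breast epithelial line transformed with H-Ras, grown in serum with epidermal growth factor, insulin, hydrocortisone and cholera toxin. SMAD2/3 is the pair of receptor-regulated factors that carry the TGFβ signal to chromatin, and it was immunoprecipitated with 1 antibody against both, 1.5 h and 16 h after 5 ng/ml TGFβ3. Each time had 1 library, so no value has a replicate error, and the number of reads behind a peak is unknown from the lists. An input library of untreated cells was the only sample without TGFβ3 and was not analysed here, and the lists hold no expression values against which to check the cell type or the level of MYC.

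No SMAD2/3 peak was listed in the MYC gene body or within 50 kb of the MYC start at either time. The peak nearest to the start lay before it, 66.7 kb away at 1.5 h and 66.9 kb away at 16 h. After the start, the nearest peak lay 391.8 kb away at both times. MYC thus stood in a stretch of 458.4 kb without a peak in either list, 66.7 kb of it before the start and 386.4 kb behind the end of the gene. A stretch of this length was common, since 38.2% of the 4849 gaps between neighbouring peaks of both lists were longer and the median gap was 273.5 kb. The lists hold peaks past the authors' threshold alone, so binding at the promoter that did not pass it would not show in them.

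With peaks of either list under 500 bp apart joined, the window held 8 sites, 5 before MYC and 3 behind it. Of these, 3 were listed at both times, 3 at 1.5 h only and 2 at 16 h only. Over the whole lists, 25.3% of 1.5 h peaks and 16.6% of 16 h peaks overlapped a peak of the other list. Listing at 1 time only was thus the usual case for a peak, and the share for joined sites was not computed. All 3 sites of 1.5 h only lay before MYC, between 334.7 and 520.5 kb from the start. Both sites of 16 h only lay behind MYC, at 440.7 and 448.5 kb. The 3 sites listed at both times lay 513.2 and 66.7 kb before the start and 391.8 kb after it. The peaks counted singly showed the same layout, with 6 before and 1 behind MYC at 1.5 h and 3 on each side at 16 h.

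**Figure D1:**
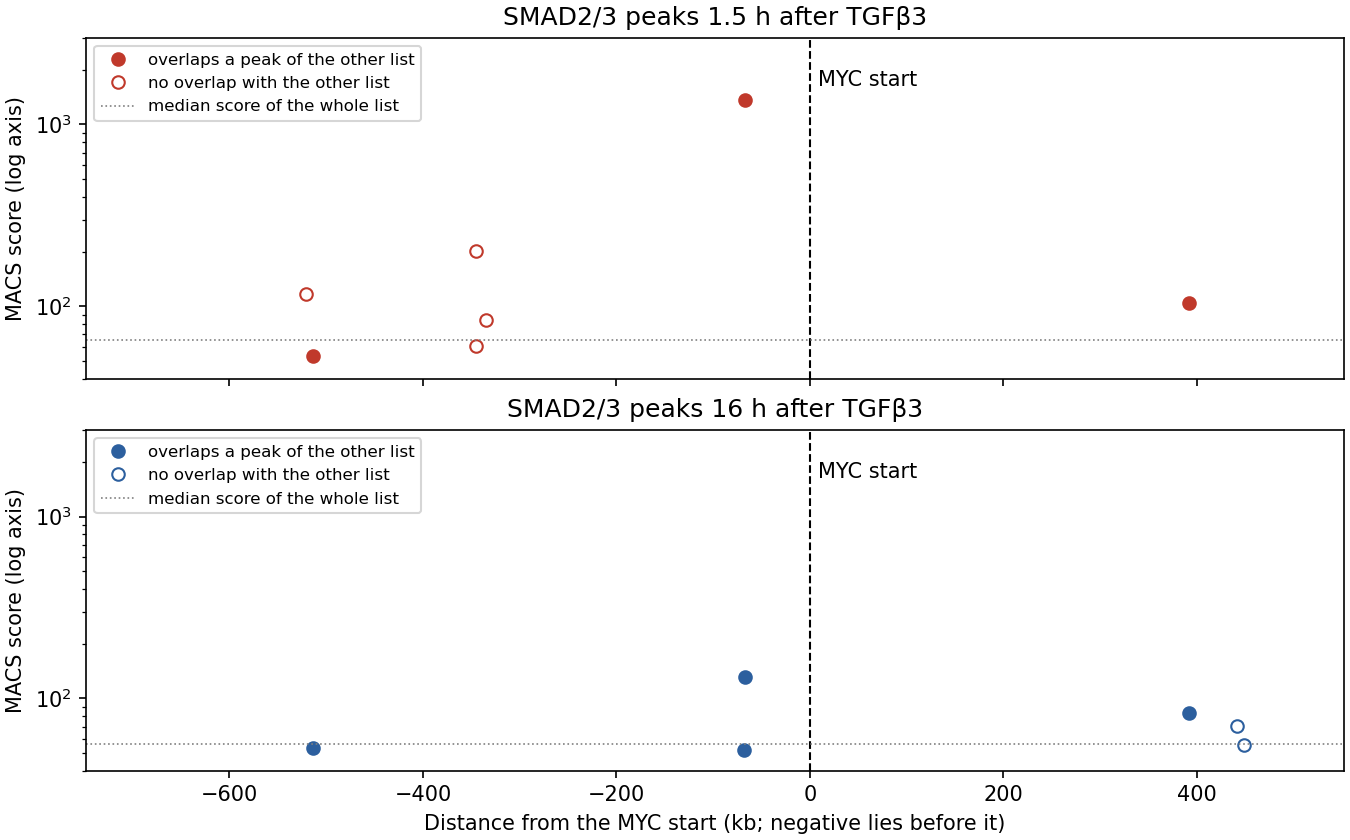
SMAD2/3 peaks around MYC at 1.5 h (top) and 16 h (bottom), with distance from the MYC start in kb on the x axis and the MACS score on a logarithmic y axis. Each point is a peak, filled where it overlaps a peak of the other list, and the dotted line is the median score of the whole list (64.9 at 1.5 h, 56.2 at 16 h). One peak, 66.7 kb before the start, stands at 1363 in the 1.5 h list, and no point lies closer to MYC.

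The site closest to MYC had by far the highest score of the window at 1.5 h, and the highest at 16 h. At 1.5 h it was 1 peak at 128680119 to 128681625 with a score of 1363, rank 2 of 2206. It was 1507 bp wide, the widest peak of the whole 1.5 h list, in which the median width was 130 bp. The next peak of the window at 1.5 h scored 201.7, and the peaks ranked directly above and below the site in the list scored 1839 and 1250. At 16 h the same stretch held 2 narrower peaks. The one nearer to MYC, at 128680797 to 128681400, was 604 bp wide and scored 131.3, rank 238 of 3280. The other, at 128680258 to 128680526, was 269 bp wide and scored 52.2, rank 2565, below the list median of 56.2. Both lay wholly within the 1.5 h peak and were 270 bp apart. Together they covered 873 bp, which was 57.9% of its width. They began 139 bp behind its start and ended 225 bp before its end.

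Side by side with other high-scoring early sites, this one had a lower 16 h score than most and 2 called peaks at 16 h. All of the 20 highest 1.5 h peaks overlapped at least 1 peak at 16 h. For the other 19, the highest overlapping 16 h peak scored between 58.3 and 1650, with a median of 459.6, and 2 of them scored below the 131.3 of the MYC site. One was a site on chromosome 13 at 31317373 to 31317929, whose scores were 663.5 early and 58.3 late. The other lay on chromosome 11 at 128077634 to 128078693, where they were 698.6 and 89.3. The next late scores above that of the MYC site were 148.7, 180.8 and 183.6. None of the other 19 overlapped more than 1 peak at 16 h. Among all 558 peaks at 1.5 h with a 16 h partner, 52 (9.32%) overlapped 2 or more. This share was not matched for width, and the MYC site was the widest 1.5 h peak. The other 19 were between 557 and 1354 bp wide. The 494 one-to-one pairs each hold 1 peak per time, so only 1 of the 2 pieces at 16 h entered for the MYC site. In this set it ranked 2 by its 1.5 h score and 171 by its 16 h score. By width it ranked 1 at 1.5 h and 21 at 16 h. Both 16 h ranks, by score and by width, are those of the 604 bp piece alone. The 2 pieces with the space between them spanned 1143 bp. The libraries may differ in depth, which is unknown, and a score depends on it, so these ranks place the site within each list and do not measure a loss of binding.

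**Figure D2:**
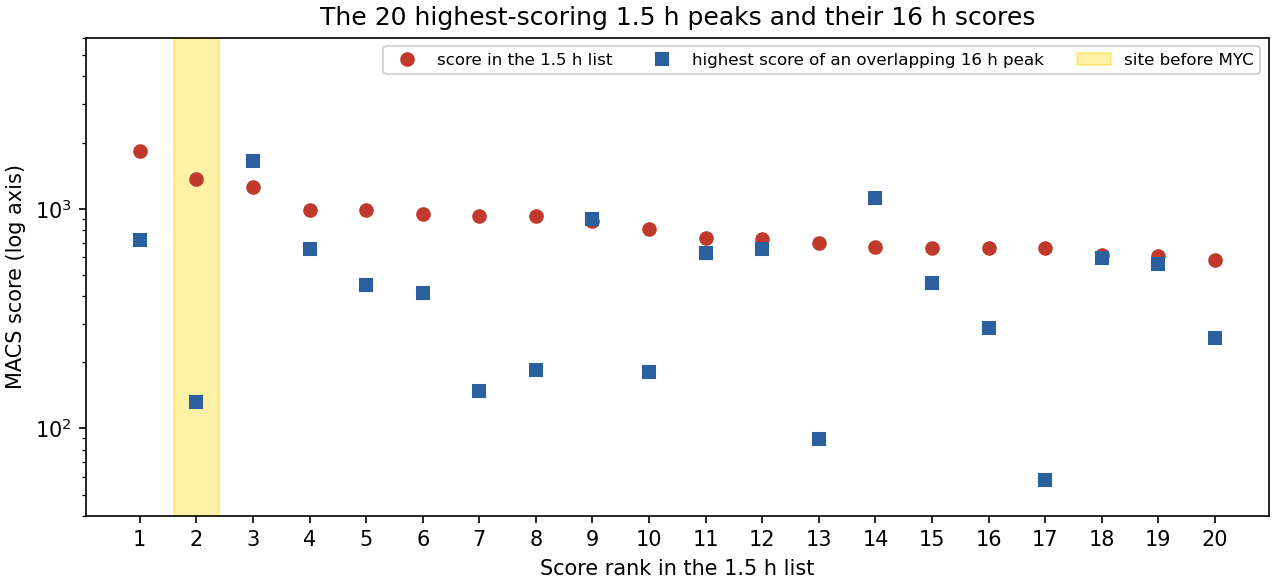
The 20 highest-scoring peaks of the 1.5 h list, in rank order on the x axis, with their 1.5 h score (circles) and the highest score of an overlapping 16 h peak (squares) on a logarithmic y axis. The shaded site before MYC is second at 1.5 h with 1363 and has 131.3 at 16 h, and 2 of the other 19 have a lower 16 h score.

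The high-scoring site had no other 1.5 h peak close by. The nearest other 1.5 h peak was 266.5 kb away, and behind it the next was 458.4 kb away. Over the whole 1.5 h list the median gap between neighbouring peaks was 363.7 kb, and 46.6% of gaps were longer than 458.4 kb. Single gaps of such length were thus common, but the share of all peaks with a nearest peak as far away was not computed. Of the other 19 peaks among the 20 highest, 5 had a longer distance to the nearest 1.5 h peak, and the median distance over the 19 was 0.086 kb, as many had a further peak directly beside them. At 16 h the nearest peak beyond the 2 pieces was 445.1 kb before the first of them.

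The site 391.8 kb after the start had similar places in both lists. At 1.5 h it lay at 129140068 to 129140364, was 297 bp wide and scored 104.1, rank 424 of 2206. At 16 h it lay at 129140133 to 129140445, was 313 bp wide and scored 83.0, rank 546 of 3280. The peaks overlapped by 232 bp, which was 78.1% of the 1.5 h peak and 74.1% of the 16 h peak, and their midpoints were 73.0 bp apart. Over all one-to-one pairs the median distance of midpoints was 58.8 bp. It was the site with the closest match of positions in the window. In the ranking among the 494 pairs it was 238 at 1.5 h and 298 at 16 h.

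The most distant of the sites listed at both times scored below the median of both lists. At 128234778 to 128234964 the 1.5 h list had a peak of 187 bp with a score of 53.1, rank 1942 of 2206. At 128234915 to 128235124 the 16 h list had a peak of 210 bp with a score of 53.2, rank 2051 of 3280. They shared only 50 bp, and their midpoints were 148.5 bp apart. The list medians were 64.9 at 1.5 h and 56.2 at 16 h.

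**Figure D3:**
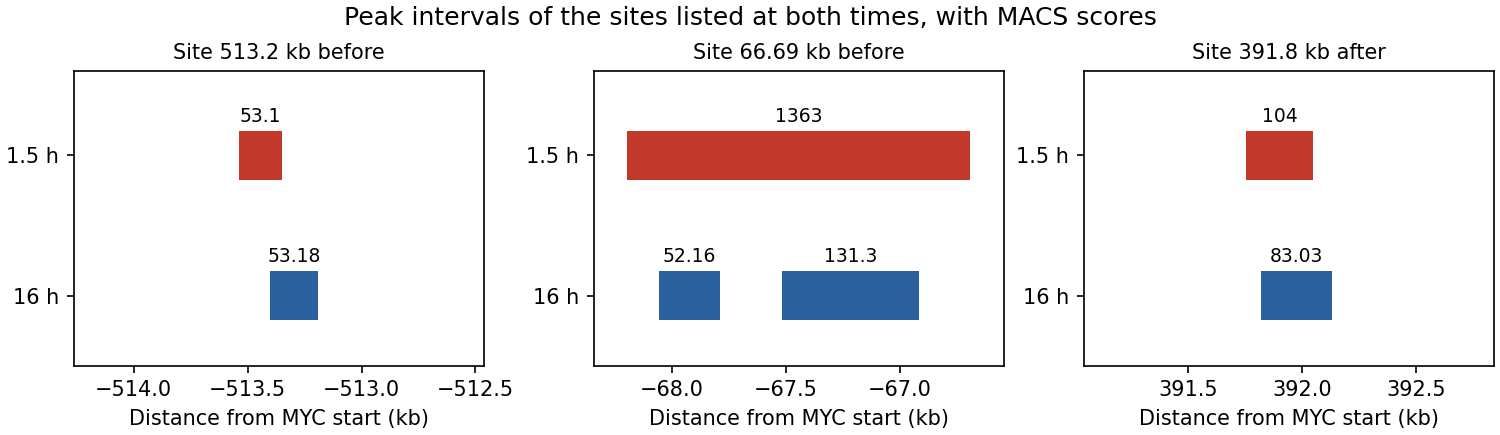
Intervals of the peaks at the 3 sites listed at both times, drawn to scale by distance from the MYC start in kb, with 1.5 h above and 16 h below and each peak's MACS score over its bar. In the middle panel the single 1.5 h peak of 1507 bp spans both 16 h peaks of 269 and 604 bp, while the right panel shows intervals of nearly equal width.

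The remaining early sites lay farther out before MYC and had no 16 h peak on them. That was the case for most 1.5 h peaks of the whole list. It was not for those with a score of at least 100, of which 58.3% overlapped a 16 h peak. The peaks of score 201.7 and 117.4 below belong to that class. A peak at 128403421 to 128403821, 344.5 kb before the start, was 401 bp wide and scored 201.7, rank 130 of 2206. Only 4 bp before it lay a second peak of 89 bp with a score of 60.4, so this may be 1 site listed in pieces. Another 9.49 kb closer to MYC, a peak of 353 bp scored 84.6, rank 619. The nearest 16 h peak to these 3 lay at least 168.2 kb away. At 128227588 to 128227854, 520.5 kb before the start, a peak of 267 bp scored 117.4, rank 322. It had a 16 h peak 7.06 kb away, which was the low-scoring one 513.2 kb before the start.

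The late sites were both behind MYC, and like most 16 h peaks they overlapped no 1.5 h peak. The one nearer to MYC scored above the list median of 56.2, and the other just below it. The peak at 129189011 to 129189386, 440.7 kb after the start, was 376 bp wide and scored 70.4, rank 765 of 3280. The other, 448.5 kb after the start, was 148 bp wide and scored 55.7, rank 1699, and it lay 7.40 kb from the first. The nearest 1.5 h peak lay 48.6 and 56.4 kb away, and for both it was the site 391.8 kb after the start.

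Across the window, overlap between the times and score can be set beside the whole lists. Overlap with the later list was found for 3 of 7 peaks at 1.5 h (42.9%, with a 95% exact Clopper-Pearson interval of 9.90 to 81.6%), against 25.3% of all 1.5 h peaks. At 16 h, 4 of 6 (66.7%, interval 22.3 to 95.7%) overlapped a 1.5 h peak, against 16.6% of the list, and 2 of these 4 were the pieces on the site closest to MYC. These intervals are wide, cover counting error only and treat neighbouring peaks as independent. A score of at least 100 was reached by 4 of 7 peaks at 1.5 h, where 20.1% of all peaks reached it, and by 1 of 6 at 16 h, where 11.5% did. Of the 4 at 1.5 h, 2 overlapped a 16 h peak, and over the whole list 58.3% of peaks with such a score did. The median score of the window was 104.1 at 1.5 h, with a range of 53.1 to 1363, against 64.9 over the list. At 16 h it was 63.0, with a range of 52.2 to 131.3, against 56.2. In the window 6 of 7 peaks at 1.5 h and 6 of 6 at 16 h were wider than the median of their list, which was 130 and 108 bp.

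**Figure D4:**
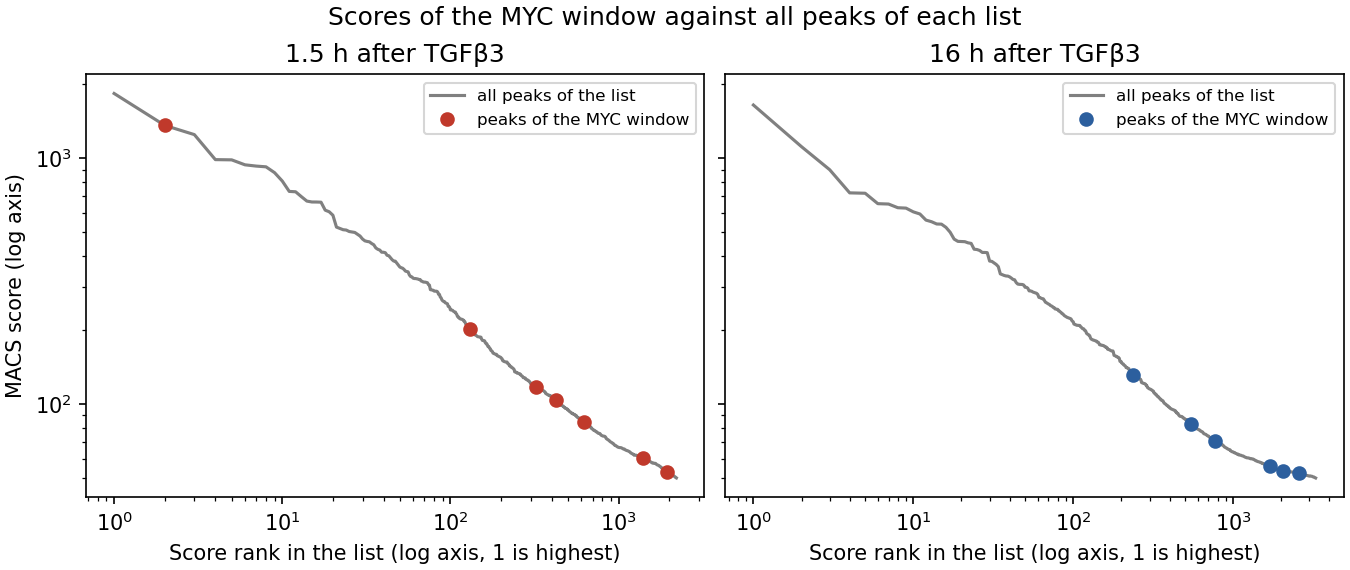
Scores of all peaks of a list against their rank (grey line, both axes logarithmic) with the peaks of the MYC window as points, at 1.5 h (left) and 16 h (right). At 1.5 h the window has the peak of rank 2 and further peaks from rank 130 to 1942, and at 16 h its first peak is at rank 238.

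The window held more peaks than most stretches of its length in both lists, though fuller ones existed. It had 5.38 peaks per Mb at 1.5 h and 4.62 at 16 h. That was 0.317% (95% exact binomial interval 0.128 to 0.653%) and 0.183% (0.0672 to 0.398%) of the respective list. These intervals too cover counting error only and treat neighbouring peaks as independent. When the span of listed peaks on each chromosome was cut into tiles of 1.3 Mb in step with the window, 36 of the other 2299 tiles (1.57%) held at least 7 peaks at 1.5 h and 67 (2.91%) held at least 6 at 16 h. The place at 16 h rested on low-scoring peaks and on the 2 pieces of 1 site. With neighbours under 500 bp apart merged, 104 tiles held at least as many peaks as the window at 16 h, with a score of at least 60 there were 118, and with a score of at least 100, which left the window 1 peak, there were 280. At 1.5 h the same limits gave 24, 21 and 9 tiles. Among all peaks as listed, 11 tiles held at least 7 at 1.5 h and at least 6 at 16 h. A tile had a mean of 0.957 peaks at 1.5 h and 1.43 at 16 h, and the fullest tiles had 14 and 20. Tiles without any peak, which include stretches that reads cannot be placed in, made up 57.2% at 1.5 h and 35.8% at 16 h. On chromosome 8, 2 of 112 other tiles held as many peaks as the window at 1.5 h and 1 did at 16 h. The tiles directly before and behind the window held 1 and 1 peaks at 1.5 h and 3 and 1 at 16 h.

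**Figure D5:**
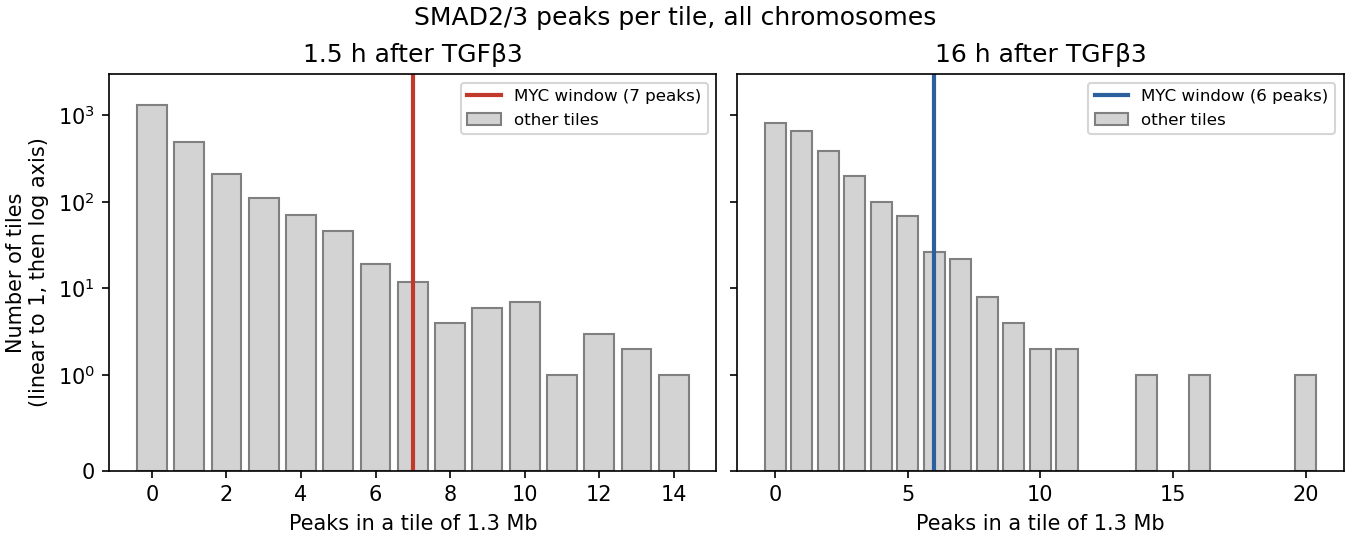
Number of tiles of 1.3 Mb by the number of SMAD2/3 peaks they hold, at 1.5 h (left) and 16 h (right), with the y axis linear from 0 to 1 and logarithmic above. The coloured line marks the MYC window with 7 and 6 peaks, inside the upper tail of the other 2299 tiles, which reaches 14 and 20.

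The edges of the window did not divide a group of peaks. Its outermost peaks lay 227.6 kb inside the front edge at 1.5 h and 234.9 kb inside it at 16 h, and 159.6 and 103.1 kb inside the rear edge. The nearest peaks outside it had low scores. Before the window they lay 81.4 kb off at 1.5 h, with a score of 50.4, and 487.7 kb off at 16 h, with a score of 55.3. Behind it they lay 595.5 and 595.7 kb off, with scores of 61.9 and 51.5.

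The peak lists carry no gene names, and gene positions on hg19 other than that of MYC were not used here. In the RefSeq gene table for GRCh38, read for the order of genes alone, the 5 nearest protein-coding or long non-coding RNA genes with a name of their own before MYC are, outwards, the long non-coding RNA gene CASC11, the protein-coding retrogene POU5F1B, and the long non-coding RNA genes CCAT2, CASC8 and CASC21. The 5 nearest behind MYC, chosen in the same way, are the long non-coding RNA genes PVT1, LINC02912, LINC00824, LINC00976 and LINC00977. The nearest protein-coding genes are POU5F1B before MYC and GSDMC, which encodes a gasdermin, behind it. Which of these genes, if any, a peak lies in was not determined, and a peak near MYC on the chromosome is not shown to act on it. For the same reason no peak was assigned to other genes of the TGFβ growth arrest programme, such as CDKN1A, CDKN2B and the ID genes.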

How the data were processed

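For each ChIP library the authors deposited a list of peak intervals, each with its MACS score. Tools and build, per the submitters' processing notes, were MACS 1.4.2, Bowtie 1.1.0, Picard and hg19. Not given in the sources used here were the settings, how the input library was used and what the score is computed from. Pooling of samples is mentioned by no label. Sequencing depth moves both the number of peaks and their scores at a fixed threshold, and it is unknown.

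Positions were counted from 1. Window and MYC positions came from the rule for the region. Distances run from the MYC start to the nearest edge of a peak. Peaks sharing at least 1 bp overlapped. One-to-one pairs were each other's largest overlap, and tied ranks took the lowest number. Every peak of the window was described. Full values were fixed for sites listed at both times, the 3 highest peaks of each list and the nearest to MYC on each side. The region and these rules were chosen with earlier results of these data known. Calculations ran in Python 3.11.15 with pandas 2.3.3, scipy 1.17.1, numpy 2.4.6 and, for plots, matplotlib 3.10.9. The overlap, pairing, tile and merging code was tested on 20 simulated sets of lists.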

Additional observations from a re-analysis of the deposited data

How the results depend on the processing

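Of 37 alternative values, 19 stayed within 1.5 times the reported one, and the distance of the nearest peak to MYC changed under none of the score limits tried (60 and 100). With a score of at least 60 in both lists, the window held 3 peaks at 16 h, of which 2 overlapped a 1.5 h peak, and 21 other tiles at 1.5 h and 118 at 16 h held as many peaks. With a score of at least 100, it held 4 peaks at 1.5 h and 1 at 16 h, of which 1 and 1 overlapped, since both lists were limited before overlap was called and the partner of a second 1.5 h peak was thereby removed, and 9 and 280 tiles held as many. Within 250 kb of the MYC start there were 1 and 2 peaks. A reciprocal overlap of 50% left 1 overlapping peak at each time, at the site 391.8 kb after MYC, and the site closest to MYC no longer counted as shared because its 16 h peaks were much narrower. With neighbours under 500 bp apart merged, 104 tiles held as many peaks at 16 h. Ranked by width, the highest-scoring peak of the window was 1 at 1.5 h and 24 at 16 h, against 2 and 238 by score. Peaks at most 10 kb apart formed 5 runs, and at most 5 kb apart they formed 8. No paired analysis was possible because there was 1 library a time, which also left no replicate to omit. Whether a site listed at 1 time was unbound at the other was not tested, since depth is unknown.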
